A study of Mus musculus with 75 samples.

Results

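The 7 genes described here encode cell-surface receptors for the lysophospholipids sphingosine 1-phosphate (S1P) and lysophosphatidic acid (LPA), or, for P2ry10, for a related lipid. They were S1pr1, S1pr2, S1pr3, S1pr4, P2ry10, Lpar1 and Lpar6, taken by name from the 41388 mouse gene IDs of the deposited tables, and all 7 had a row in both tables. The list was chosen by receptor family with earlier results of these data known, and measured values entered that choice: the lower counts of S1pr1 and P2ry10 in ko HPC and of P2ry10 in ko pGM. For that reason the genotype values of untreated HPC and pGM are given as a description without a test, and tests are given for the other cells, for the second experiment and for the populations.

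S1P and LPA are lipids that act outside the cell through receptors coupled to G proteins. S1P is kept high in blood and lymph and low inside tissues, and blood cells that carry S1pr1 sense this gradient when they leave the marrow, the thymus or a lymph node. S1pr2 is known for the opposite action, holding cells in place, whereas S1pr4 is found mainly on blood cells. P2ry10 is a receptor of lymphocytes for lysophosphatidylserine, and binding of S1P and LPA has also been reported for it.

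The libraries were bulk RNA-seq of sorted blood cells of 8-week-old mice, counted as reads per gene. Mice labelled ko carried Kmt2c f/f with Vav-Cre, mice labelled het carried Kmt2c f/+ with Vav-Cre, and wt mice were labelled wild type. The Vav promoter makes Cre active in blood cells, f is a floxed allele, and Kmt2c encodes a histone H3 lysine 4 methyltransferase. The wt libraries had no Vav-Cre label, so the difference between ko and wt cannot be told apart from that of carrying Cre, which ko and het shared. In the untreated experiment, HSC, HPC, pGM (pre-granulocyte-monocyte cells) and GMP were each taken from ko, het and wt mice, with 4 libraries per group and 48 in all. In the second experiment, ko and wt mice were given interleukin 1 (IL-1) at 0.5 µg to each mouse over 3 days, or PBS, its vehicle, over 3 days. It gave 27 libraries, namely 4 each of ko HSC after IL-1, ko HSC after PBS and wt HSC after PBS, 3 of wt HSC after IL-1, and 3 of each of the 4 HPC groups. Nothing in the labels says that libraries of a group came from separate animals, so p-values measure the spread between libraries. Total counts were 13.3 to 20.8 M reads (M, 1000000 reads) per untreated library and 18.6 to 42.8 M reads per library of the second experiment.

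Levels are given as CPM, the counts of a gene per 1000000 reads of its library. Kmt2c averaged 12.3 CPM in ko HPC, 31.2 CPM in het HPC and 39.7 CPM in wt HPC, and 16.0, 35.6 and 50.9 CPM in ko, het and wt HSC. Of the wt HSC libraries after IL-1, replicate 1 had 14.0 CPM of Kmt2c, which lies within the 12.7 to 16.8 CPM of the ko HSC libraries after IL-1, while the group's highest library had 42.6 CPM. The Kmt2c level of this library, labelled HSC wt IL1 replicate 1, goes against its label, but not every gene does. Its Rgs1 was 199.3 CPM, against 182.4 and 151.1 CPM in replicates 2 and 3 and at most 86.3 CPM in ko HSC after IL-1. Its Cd69 was 17.8 CPM, against 19.1 and 17.4 CPM in replicates 2 and 3 and at most 14.6 CPM in ko HSC after IL-1. Its P2ry10b was 1.59 CPM, against 11.4 and 7.42 CPM in replicates 2 and 3 and 0.790 to 3.27 CPM in ko HSC after IL-1. Its S1pr1, P2ry10 and S1pr3 were also below replicates 2 and 3, as given further on. Whether this library is mislabelled was not tested. Results that rest on this library are given with and without it. The values without it were added after the data were seen where they are counts by DESeq2 or at an unadjusted p, or correlations. Summed Y-linked reads were under 10 CPM in 2 of the 4 ko libraries of each untreated population and in none of the het or wt ones. They were replicates 1 and 4 in all 4 populations. The labels do not say whether same-numbered libraries of different populations came from the same mice, so the HSC and GMP tests may not be independent of the HPC and pGM values that entered the choice of genes. The stem cell marker list had a mean summed level of 2655 CPM in wt HSC, 942 CPM in wt HPC, 341 CPM in wt pGM and 27.2 CPM in wt GMP, and the granulocyte monocyte progenitor list had 1369, 2738, 19300 and 157200 CPM in the same order.

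The members lie on 7 chromosomes in the GENCODE M21 annotation (GRCm38). S1pr1 (ENSMUSG00000045092) spans chr3:115710433-115715072, S1pr2 (ENSMUSG00000043895) chr9:20962361-20976781, S1pr3 (ENSMUSG00000067586) chr13:51408639-51422797 and S1pr4 (ENSMUSG00000044199) chr10:81497747-81500132. P2ry10 (ENSMUSG00000050921) spans chrX:107088492-107104974, Lpar1 (ENSMUSG00000038668) chr4:58435255-58553898 and Lpar6 (ENSMUSG00000033446) chr14:73237895-73243294. Lpar6 lies on the opposite strand within Rb1, and because no source used here states the strandedness of the counting, its reads and those of Rb1 cannot be told apart where the genes overlap. The same limit holds for S1pr3, which the lincRNA Gm32834 overlaps on the opposite strand (chr13:51378136-51418686). Lpar1 overlaps the pseudogene Gm12577 and the miRNA gene Mir3095 on its own strand. P2ry10 shared 3.79% of its 50-base windows with its paralog P2ry10b, and the other members shared at most 1.24% with any gene.

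P2ry10 has P2ry10b at 43.95 kb and Gpr174 at 150.9 kb on the X chromosome, and all of them encode receptors of the same lipid family. Because their reads differed between genotypes, as given further on, RefSeq windows from 250 bases before to 50 bases after their transcription starts are shown (GRCm38.p6, plus strand). The windows of the first and second starts of P2ry10b are not printed. Capitals mark GATAA, the core of the GATA factor motif, and GAGGAA, the core of the PU.1 motif, on either strand, so that they also read TTATC and TTCCTC.
P2ry10, first start, chrX:107088242-107088541: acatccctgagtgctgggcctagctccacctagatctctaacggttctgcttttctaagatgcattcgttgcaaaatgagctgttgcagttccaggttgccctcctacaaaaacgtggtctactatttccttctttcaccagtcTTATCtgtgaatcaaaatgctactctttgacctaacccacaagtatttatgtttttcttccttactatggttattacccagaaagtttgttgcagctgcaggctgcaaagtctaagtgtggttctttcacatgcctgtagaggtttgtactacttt
P2ry10, second start, chrX:107089083-107089382: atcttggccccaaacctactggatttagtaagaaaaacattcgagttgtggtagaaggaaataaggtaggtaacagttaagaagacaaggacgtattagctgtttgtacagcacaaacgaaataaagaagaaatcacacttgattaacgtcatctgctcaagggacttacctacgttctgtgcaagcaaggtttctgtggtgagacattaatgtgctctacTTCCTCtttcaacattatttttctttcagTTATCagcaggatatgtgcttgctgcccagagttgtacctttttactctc
P2ry10b, last start, chrX:107149365-107149664: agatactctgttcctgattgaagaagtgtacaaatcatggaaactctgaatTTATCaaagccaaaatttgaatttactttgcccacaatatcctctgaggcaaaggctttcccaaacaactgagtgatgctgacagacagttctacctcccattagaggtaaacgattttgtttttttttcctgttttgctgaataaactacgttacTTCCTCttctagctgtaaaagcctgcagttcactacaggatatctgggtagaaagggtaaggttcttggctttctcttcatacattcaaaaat
Gpr174, chrX:107284096-107284395: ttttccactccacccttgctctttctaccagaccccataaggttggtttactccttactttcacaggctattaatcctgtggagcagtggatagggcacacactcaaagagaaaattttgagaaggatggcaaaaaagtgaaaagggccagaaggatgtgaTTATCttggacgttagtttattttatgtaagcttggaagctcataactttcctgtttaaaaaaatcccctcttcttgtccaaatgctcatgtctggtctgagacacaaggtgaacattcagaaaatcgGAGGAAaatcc
Of the 6 windows of these genes, 5 held GATAA and 3 held GAGGAA, and the matches did not overlap in the 4 windows shown. Of the windows not printed, that of the first P2ry10b start held neither, and that of the second held GATAA only. The 2 last windows of P2ry10b overlap each other and hold the same GATAA match, which is counted in both. Of the 9 windows of the members themselves, which cover 6 of the 7 genes and not S1pr1, 3 held GATAA and 3 held GAGGAA. Over all 32851 RefSeq windows of the same length, 25.41% held GATAA, 28.28% held GAGGAA and 7.24% held both. The cores of the KLF and NF-kB motifs were searched as well and are not marked. Each was held by 1 of the 6 windows of P2ry10, P2ry10b and Gpr174. Of the 9 member windows, 6 held the KLF core and 5 the NF-kB core. Over all windows the shares were 57.52% for KLF and 50.79% for NF-kB. The letters are a description of these windows and say nothing of binding.

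In untreated wt cells, S1pr4 had the highest mean level per length of exon in HSC, HPC and pGM, with S1pr1, Lpar6 or S1pr3 next, and Lpar1 was the lowest or next to lowest member in each population. In wt HSC the mean level per kilobase of exon was 48.3 CPM for S1pr4, 15.2 CPM for S1pr1 and 13.3 CPM for Lpar6, followed by 3.20 CPM for P2ry10, 1.84 CPM for S1pr2, 1.201 CPM for S1pr3 and 0.271 CPM for Lpar1. The library ranges of S1pr1 and Lpar6 overlapped, as did those of P2ry10 and S1pr2 and of S1pr2 and S1pr3. The ranges thus did not separate these neighbours in the order, and differences between genes were not tested. In wt GMP the order was led by S1pr3 at 17.8 ± 4.78 CPM per kilobase and S1pr4 at 17.8 ± 1.46 CPM per kilobase (SD, n = 4 each), whose ranges overlapped, and S1pr1, P2ry10 and Lpar1 were all under 0.3 CPM per kilobase.

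**Figure D1:**
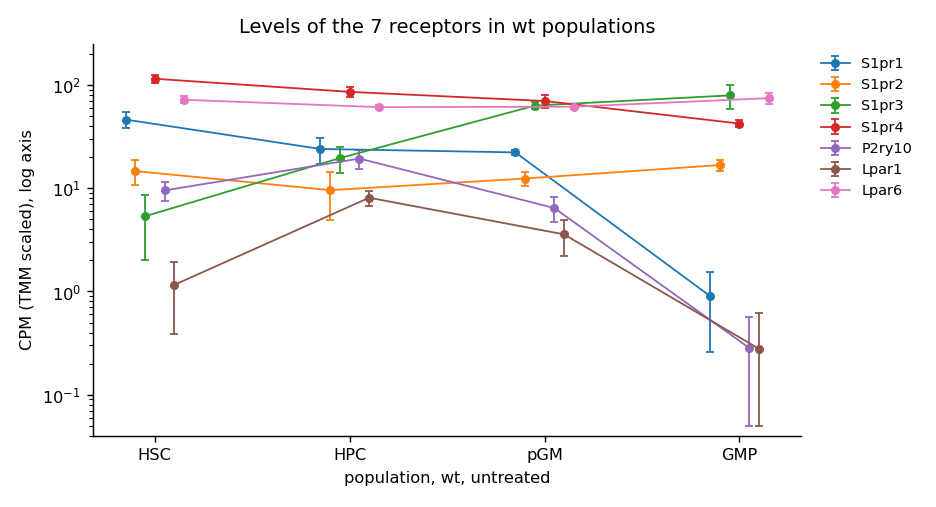
Mean CPM after TMM scaling (log axis) of the 7 receptors in untreated wt HSC, HPC, pGM and GMP; bars are the SD over 4 libraries, with lower ends drawn no lower than 0.05 CPM. S1pr3 is at 5.36 CPM in HSC and 79.4 CPM in GMP, whereas S1pr1, P2ry10 and Lpar1 are all under 1 CPM in GMP.

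The 7 receptors differed in the population where they were highest. S1pr3, a receptor that couples to several G proteins, had 2.13, 9.42, 6.68 and 3.21 CPM in wt HSC, 12.7, 17.5, 24.6 and 23.8 CPM in wt HPC, 70.0, 59.9, 61.9 and 60.9 CPM in wt pGM, and 57.3, 90.3, 66.4 and 103.6 CPM in wt GMP. Its libraries did not overlap from HSC to HPC or from HPC to pGM, but overlapped between pGM and GMP. S1pr4 ran the other way, with mean levels of 115 ± 10.9 CPM in wt HSC, 85.9 ± 8.92 CPM in wt HPC, 70.1 ± 10.3 CPM in wt pGM and 42.4 ± 3.48 CPM in wt GMP (SD, n = 4 each). Lpar1, an LPA receptor, was highest in wt HPC, at 7.10, 9.21, 9.36 and 6.73 CPM, against 0.194, 1.94, 1.59 and 0.917 CPM in wt HSC. P2ry10 too had its highest mean in wt HPC, with 9.53 ± 2.00 CPM in wt HSC, 19.4 ± 4.13 CPM in wt HPC and 6.44 ± 1.74 CPM in wt pGM (SD, n = 4 each). S1pr2 stayed between 9.59 and 16.8 CPM and Lpar6 between 61.1 and 74.7 CPM in the wt group means.

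From HSC to HPC, 3 of the 7 members were called by edgeR's quasi-likelihood test at a Benjamini-Hochberg adjusted p under 0.05, beside 22.8% of all genes tested. S1pr3 was higher in wt HPC than in wt HSC by 1.88 ± 0.41 on the log2 scale (SE, edgeR adjusted p = 0.00055), and Lpar1 was higher by 2.80 ± 0.63 (edgeR adjusted p = 0.00072). S1pr4 was lower by 0.42 ± 0.14 (log2 change -0.42, edgeR adjusted p = 0.020), a call that was lost without replicate 2 or 3 of HPC wt or replicate 1 of HSC wt, while S1pr2 was called as well without replicate 4 of HPC wt (log2 change -0.99, edgeR adjusted p = 0.0080). S1pr1 was at 16.5, 22.1, 24.3 and 33.2 CPM in wt HPC, against 35.5, 45.4, 51.4 and 53.0 CPM in wt HSC, groups that did not overlap, and its log2 change of -0.95 ± 0.40 missed the threshold (edgeR adjusted p = 0.083). The same step measured in the PBS libraries of the second experiment again gave 3 members called, beside 13.8% of all genes, with S1pr3 higher in HPC by 1.98 ± 0.44, Lpar1 by 4.47 ± 0.76 and S1pr4 lower (log2 change -0.57 ± 0.18, SE; edgeR adjusted p = 0.0025, 0.00013 and 0.039). The S1pr4 call in that experiment was lost without the filter on low counts, with a covariate of Y-linked reads and without any 1 of 5 of the 7 libraries (edgeR adjusted p = 0.070 to 0.24 in those 5). With the replicate number as a block, S1pr1 was called there too (log2 change -1.12, edgeR adjusted p = 0.041).

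From HPC to pGM, S1pr3 was the 1 member called, beside 12% of all genes, and it was higher in wt pGM by 1.69 ± 0.39 on the log2 scale (SE, edgeR adjusted p = 0.0027). P2ry10 had 7.12, 7.37, 3.83 and 7.43 CPM in wt pGM, against 22.8, 18.5, 13.9 and 22.4 CPM in wt HPC, a log2 change of -1.59 ± 0.59 that missed the threshold (edgeR adjusted p = 0.072). From pGM to GMP, 4 members fell, beside 18% of all genes called lower and 29% called in either direction. S1pr1 was at 0.989, 1.52, 0 and 1.096 CPM in wt GMP, against 21.4, 22.5, 23.6 and 21.5 CPM in wt pGM (log2 change -4.60 ± 0.51, SE, edgeR adjusted p = 7.7e-10). P2ry10 (log2 change -4.46 ± 0.78, edgeR adjusted p = 1.5e-05), Lpar1 (log2 change -3.63 ± 0.73, edgeR adjusted p = 0.00012) and S1pr4 (log2 change -0.73 ± 0.14, edgeR adjusted p = 5.6e-05) were lower as well, whereas the median over all genes in this step was -0.11. P2ry10 and Lpar1 thus came to 0.284 and 0.279 CPM on average in wt GMP, 14 reads over the 4 libraries for each.

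Untreated ko HSC had less S1pr1 and P2ry10 than wt HSC, and the other 5 receptors were not called. S1pr1 had 6.45, 4.82, 6.86 and 4.20 CPM in ko HSC, 24.4, 27.5, 27.7 and 28.3 CPM in het HSC, and 35.5, 45.4, 51.4 and 53.0 CPM in wt HSC. No library of 1 genotype overlapped those of another, with het between ko and wt. P2ry10 had 0.0445, 1.18, 1.23 and 1.21 CPM in ko HSC, 4.79, 3.24, 4.41 and 3.16 CPM in het HSC, and 8.73, 11.8, 10.4 and 7.18 CPM in wt HSC, again without overlap between the genotypes. In bulk libraries, fewer cells that express a gene and less of its RNA per cell cannot be told apart.

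The ko HSC against wt HSC comparison called 2 of the 7 members, both lower, beside 1.78% of all 13806 genes tested in either direction and 1.21% lower. S1pr1 was 8.33-fold lower in ko HSC (log2 change -3.06 ± 0.21, SE, edgeR adjusted p = 1.96e-07), and P2ry10 was 10.6-fold lower (log2 change -3.40 ± 0.51, SE, edgeR adjusted p = 0.0012). Against het HSC, which also carried Vav-Cre, S1pr1 in ko HSC was 4.81-fold lower (log2 change -2.27 ± 0.20, edgeR adjusted p = 1.43e-05), beside 0.326% of all genes called. P2ry10 had a log2 change of -2.10 ± 0.50 in that comparison and missed the threshold (edgeR adjusted p = 0.12), but was called by DESeq2 (adjusted p = 0.00085) and without replicate 1 of HSC ko, which held 1 read of P2ry10 (log2 change -1.69, edgeR adjusted p = 0.037). In het HSC against wt HSC, edgeR called 0 of the 7 members, beside 0.00724% of all genes, 3 members had an unadjusted p under 0.05, and DESeq2 called 1, S1pr1. The het HSC log2 changes were -0.79 ± 0.19 for S1pr1 (edgeR adjusted p = 0.54), -1.30 ± 0.46 for P2ry10 and -1.59 ± 0.49 for S1pr3 (edgeR adjusted p = 0.81 for both).

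The intervals of the other members bound what could have been missed. S1pr4 had 98.9, 114, 139 and 113 CPM in ko HSC, against 131, 107, 110 and 113 CPM in wt HSC, and its log2 change had a 95% interval from -0.29 to 0.29. For Lpar6 the interval ran from -0.12 to 0.42 and for S1pr2 from -0.78 to 0.35. S1pr3, from -1.50 to 0.35, and Lpar1, from -2.20 to 1.12, were low in HSC, and changes of more than 2-fold were within their intervals.

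**Figure D2:**
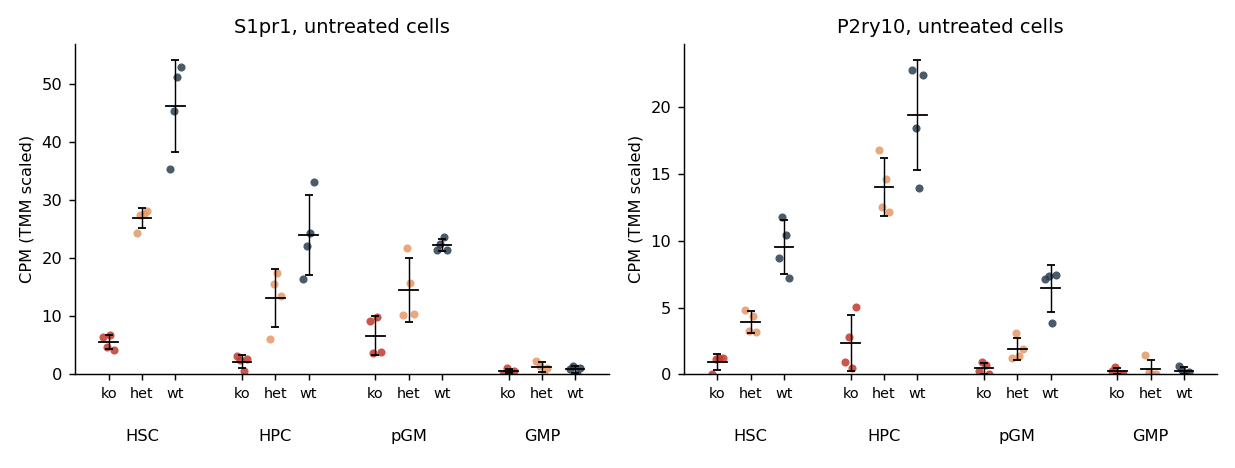
S1pr1 and P2ry10 in CPM after TMM scaling, 1 point per untreated library, by population and genotype; lines are means and bars the SD over 4 libraries. In HSC all ko points lie under all het points, which lie under all wt points (S1pr1 group means 5.58, 26.97 and 46.3 CPM), and in GMP both genes are near 0 in each genotype.

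Other markers moved with genotype in the same HSC libraries. The summed macrophage markers were at 17.7 to 34.7 CPM in ko HSC, against 64.1 to 131 CPM in wt HSC, and 3 of 8, C1qb, Cd163 and Hmox1, were called lower. The megakaryocyte list was at 188 to 307 CPM in ko HSC, against 439 to 596 CPM in wt HSC, with 5 of 6 called lower (Mmrn1, Gp9, Itga2b, Itgb3 and Gp5). Mature lymphocyte markers summed to 92.0 to 141 CPM in ko HSC and 142 to 178 CPM in wt HSC, with 1 of the 5 tested called lower (Nkg7), Ncr1 at 0 reads in ko HSC and Cd8a at 0 reads in wt HSC. The stroma list was at 38.8 to 53.6 CPM in ko HSC and 122 to 177 CPM in wt HSC, with Bgn, 1 of 2 tested, called lower, and Col3a1 and Lum at 0 reads in both. Endothelial markers summed to 266 to 411 CPM in ko HSC and 317 to 373 CPM in wt HSC with Kdr called lower, and stem cell markers to 2684 to 3239 CPM in ko HSC and 2348 to 2899 CPM in wt HSC. Markers of multipotent and lymphoid primed progenitors summed to 62.2 to 70.0 CPM in ko HSC and 76.0 to 87.0 CPM in wt HSC, without overlap, with 0 of 5 tested called. The part of these other markers in the S1pr1 and P2ry10 values was not tested. The ko HSC libraries with Y-linked reads had 4.82 and 6.86 CPM of S1pr1 and those without had 6.45 and 4.20 CPM, and with a covariate of Y-linked reads both genes stayed called in ko HSC against wt HSC (log2 change -3.02 and -3.15, edgeR adjusted p = 1.06e-05 and 0.010).

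In untreated HPC and pGM, the contrasts known when the list was drawn up, S1pr1 had 3.10, 2.55, 0.607 and 2.67 CPM in ko HPC, 6.04, 15.7, 17.4 and 13.4 CPM in het HPC, and 16.5, 22.1, 24.3 and 33.2 CPM in wt HPC. P2ry10 had 0.970, 2.81, 0.472 and 5.08 CPM in ko HPC, 16.8, 12.5, 14.6 and 12.1 CPM in het HPC, and 22.8, 18.5, 13.9 and 22.4 CPM in wt HPC. For both genes every ko library lay under every het and wt library, while het and wt libraries overlapped. The log2 changes of ko HPC against het HPC were -2.56 ± 0.41 for S1pr1 and -2.59 ± 0.46 for P2ry10 (SE). The share of all genes called in HPC was 1.1% in ko against wt, 0.196% in ko against het and 0.00753% in het against wt, and in pGM it was 1.94%, 0.564% and 0.0155% in the same order. In pGM, S1pr1 had 9.29, 3.71, 9.89 and 3.91 CPM in ko libraries, 10.2, 21.8, 15.7 and 10.4 CPM in het libraries, and 21.4, 22.5, 23.6 and 21.5 CPM in wt libraries (ko against wt log2 change -1.72 ± 0.31, SE). P2ry10 was at 0.294, 0.914, 0.707 and 0 CPM in ko pGM, 1.23, 3.11, 1.38 and 1.92 CPM in het pGM, and 7.12, 7.37, 3.83 and 7.43 CPM in wt pGM, where the het libraries also lay below every wt library (het against wt log2 change -1.74 ± 0.50, SE). The log2 changes of the other 5 members in ko against wt ran from -0.67 to 0.10 in HPC and from -0.61 to 0.23 in pGM, with overlapping libraries for each. Other markers moved in these libraries too: in ko HPC against wt HPC, Procr, Lck, Nkg7, Bgn, Pf4 and Mmrn1 were called lower and Prtn3 higher, and in ko pGM against wt pGM, Dntt, Lck, Nkg7, Cpa3, Mcpt8, Prss34, Mmrn1, Itga2b and Itgb3 were called lower and Csf1r and Cd4 higher. Mature lymphocyte markers summed to 458 to 544 CPM in ko HPC, against 755 to 1067 CPM in wt HPC, and to 491 to 615 CPM in ko pGM, against 969 to 1158 CPM in wt pGM, without overlap in either, with Cd3e at 0 reads in wt HPC and Cd3e and Cd8a at 0 reads in wt pGM. The highest wt mean of this list was in GMP, at 3540 CPM. There 3 of the 14 markers reached 1 CPM, and Cd3e, Cd3g, Cd8a and Trac had 0 reads. The sum of this list is therefore no measure of lymphocyte RNA in these cells. The megakaryocyte list was at 25.3 to 39.6 CPM in ko HPC, against 84.3 to 135 CPM in wt HPC, and at 42.7 to 96.0 CPM in ko pGM, against 123 to 135 CPM in wt pGM. Stem cell markers summed to 609 to 759 CPM in ko HPC, against 824 to 1082 CPM in wt HPC, without overlap. The granulocyte monocyte progenitor list was at 3588 to 5293 CPM in ko HPC, against 2509 to 3006 CPM in wt HPC, also without overlap. In pGM the mast cell and basophil list was at 309 to 393 CPM in ko, against 612 to 819 CPM in wt, and the erythroid list at 340 to 385 CPM in ko, against 149 to 246 CPM in wt. Markers of multipotent and lymphoid primed progenitors summed to 1005 to 1198 CPM in ko pGM, against 1563 to 1909 CPM in wt pGM, without overlap. In HPC that list overlapped, at 2062 to 2516 CPM in ko and 2147 to 2964 CPM in wt. The part of these markers in the receptor values was not tested.

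In untreated GMP, edgeR called 0 of the 5 members tested in ko against wt, beside 0.555% of all genes, 1 had an unadjusted p under 0.05, and DESeq2 called 0. P2ry10 and Lpar1 did not pass the filter on low counts in GMP. The member with the unadjusted p was S1pr3, which had 21.3, 29.4, 70.9 and 64.8 CPM in ko GMP, against 57.3, 90.3, 66.4 and 103.6 CPM in wt GMP (log2 change -0.76 ± 0.34, SE, edgeR adjusted p = 0.49). These groups overlapped. In ko against het GMP and in het against wt GMP, edgeR called 0 of 5 members, beside 0.0166% and 0.00828% of all genes, with 0 at an unadjusted p under 0.05 and 0 by DESeq2 in each.

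**Figure D3:**
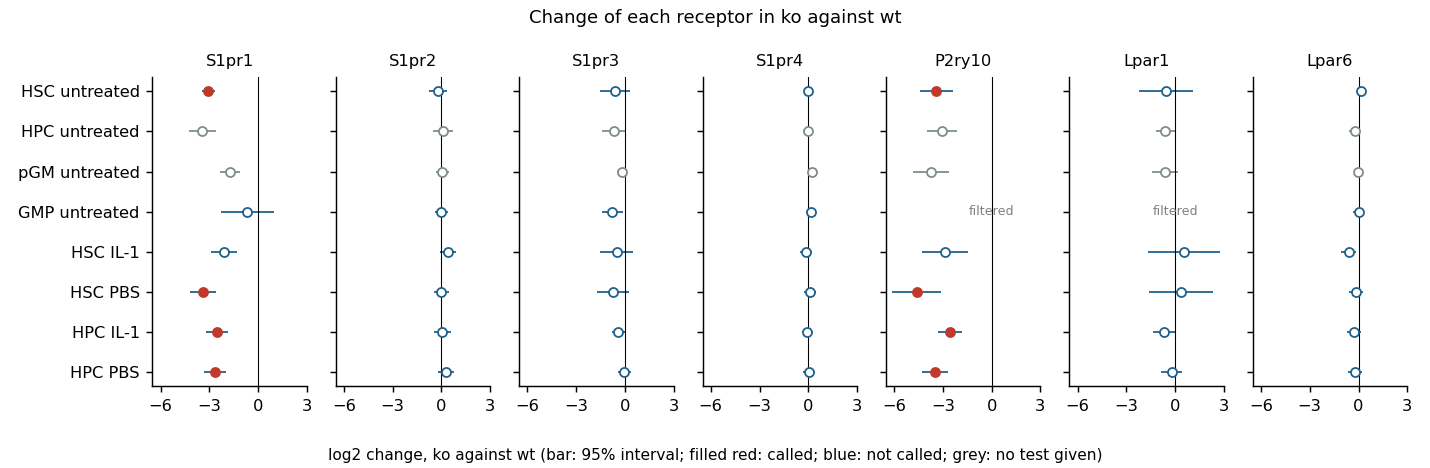
Log2 change of each receptor in ko against wt, by population and treatment, with bars of the 95% interval; filled red points were called, open blue ones were not, and open grey ones (untreated HPC and pGM) carry no test. S1pr1 and P2ry10 lie at or below -1.72 in each row but GMP, whereas S1pr4 lies between -0.14 and 0.23 throughout.

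The second experiment measured the same difference in libraries that the choice of genes had not used. After PBS, S1pr1 had 6.35, 3.71, 5.45 and 1.38 CPM in ko HSC, against 46.1, 40.5, 51.3 and 36.0 CPM in wt HSC, and 5.33, 2.76 and 3.00 CPM in ko HPC, against 18.9, 22.2 and 28.8 CPM in wt HPC. P2ry10 had 1.18, 0.267, 0.714 and 0.106 CPM in ko HSC, against 10.9, 17.7, 10.3 and 15.5 CPM in wt HSC, and 1.81, 1.74 and 1.13 CPM in ko HPC, against 7.69, 24.8 and 20.1 CPM in wt HPC. The ko libraries lay below the wt libraries without overlap in all 4 cases. Of the 7 members, 2 were called in HSC, both lower, beside 0.798% of all genes, and the same 2 in HPC, beside 0.257% of all genes. In HSC, S1pr1 fell 10.3-fold (log2 change -3.37 ± 0.41, SE, edgeR adjusted p = 0.00069) and P2ry10 24.4-fold (log2 change -4.61 ± 0.78, SE, edgeR adjusted p = 0.0092). In HPC, S1pr1 fell 6.31-fold (log2 change -2.66 ± 0.35, SE, edgeR adjusted p = 0.0067) and P2ry10 11.3-fold (log2 change -3.49 ± 0.41, SE, edgeR adjusted p = 0.0047). A block on the replicate number, which does not pair these HSC libraries, left P2ry10 at an adjusted p of 0.054 in HSC (edgeR). The difference between the HPC and HSC changes was tested itself, and edgeR called 0 of 7 members, beside 0% of all genes, with 0 at an unadjusted p under 0.05 and 0 by DESeq2. Its 95% interval was -0.39 to 1.81 for S1pr1 and -0.70 to 2.92 for P2ry10, so differences within these bounds were not excluded here.

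As in the untreated cells, macrophage markers were lower in ko HSC after PBS, at 21.6 to 38.1 CPM summed, against 83.0 to 100.1 CPM in wt HSC, with 2 of 8 called lower (Vcam1 and Cd163). In HPC after PBS the same list was at 62.6 to 144 CPM in ko and 76.7 to 118 CPM in wt, ranges that overlapped. The megakaryocyte list was at 149 to 264 CPM in ko HSC after PBS, against 417 to 603 CPM in wt HSC, and at 53.6 to 67.8 CPM in ko HPC, against 71.3 to 157 CPM in wt HPC, with Mmrn1 called lower in HPC. Stroma markers were at 36.1 to 55.3 CPM in ko HSC after PBS, against 121 to 141 CPM in wt HSC, with Bgn called lower. The granulocyte monocyte progenitor list was higher in ko after PBS, without overlap in either population. It was at 408.3 to 640.4 CPM in ko HSC, against 314.7 to 391.7 CPM in wt HSC, with Ctsg at 0 reads in ko. In HPC it was at 1598 to 2156 CPM in ko, against 869.2 to 1429 CPM in wt. Of this list, 0 of 7 tested were called in HSC and 0 of 8 in HPC. The part of these markers was not tested. Fewer than 10 CPM of Y-linked reads were found in 2 or 3 libraries of each ko group and in 0 to 2 of each wt group, and with the Y-linked covariate both genes stayed called after PBS in HSC (edgeR adjusted p = 0.0034 for S1pr1 and 0.023 for P2ry10) and in HPC (edgeR adjusted p = 0.019 and 0.0071).

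**Figure D4:**
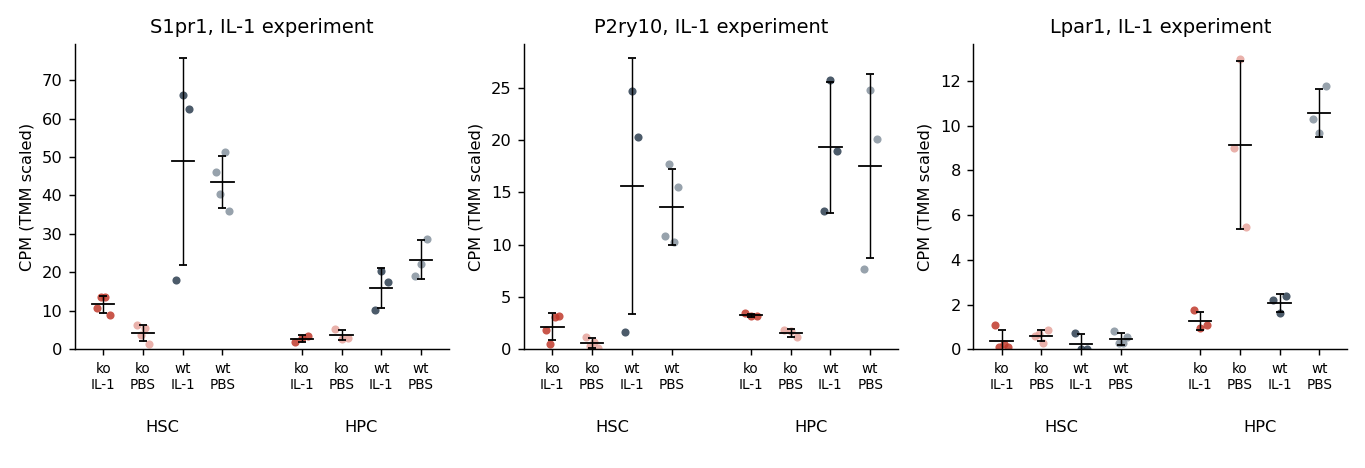
S1pr1, P2ry10 and Lpar1 in CPM after TMM scaling, 1 point per library of the second experiment; lines are means and bars the SD over 3 or 4 libraries. In wt HSC after IL-1, 1 point lies far below the other two for S1pr1 (17.9 CPM) and P2ry10 (1.68 CPM), and in HPC the Lpar1 points after IL-1 lie at or under 2.40 CPM in both genotypes.

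After IL-1 the HPC values kept the same form. S1pr1 had 1.90, 2.82 and 3.54 CPM in ko HPC, against 10.1, 20.4 and 17.4 CPM in wt HPC, and P2ry10 had 3.42, 3.14 and 3.16 CPM in ko HPC, against 13.2, 25.8 and 18.9 CPM in wt HPC. Neither gene's libraries overlapped between the genotypes. Both were called, beside 0.201% of all genes, with log2 changes of -2.53 ± 0.35 for S1pr1 and -2.57 ± 0.39 for P2ry10 (SE, edgeR adjusted p = 0.011 and 0.020). The P2ry10 call was lost with the Y-linked covariate (edgeR adjusted p = 0.058), in 1 fit of all libraries (0.16), and without replicate 2 or 3 of HPC ko IL1 or of HPC wt IL1 (0.057 to 0.10), and the S1pr1 call without replicate 2 of HPC ko IL1 (0.082), while the log2 changes in these fits stayed between -2.59 and -2.31. The macrophage list was at 48.5 to 88.9 CPM in ko HPC after IL-1 and 78.3 to 102 CPM in wt HPC, and the mature lymphocyte list at 298 to 389 CPM in ko HPC and 402 to 538 CPM in wt HPC, without overlap, with Cd3e at 0 reads in wt HPC. Mmrn1 of the megakaryocyte list was called lower, the list being at 33.3 to 79.9 CPM in ko HPC and 74.8 to 86.8 CPM in wt HPC. The part of these markers was not tested.

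In HSC after IL-1, S1pr1 had 10.7, 13.6, 13.6 and 8.92 CPM in ko libraries, against 17.9, 66.2 and 62.5 CPM in wt libraries. P2ry10 had 1.88, 0.498, 3.07 and 3.22 CPM in ko libraries, against 1.68, 24.7 and 20.3 CPM in wt libraries. The low wt value of each gene was that of HSC wt IL1 replicate 1, the library with a Kmt2c level in the ko range, and for P2ry10 it lay among the ko libraries. With it, edgeR called 0 of 7 members, beside 0% of all genes, with 3 members at an unadjusted p under 0.05 and 1, S1pr1, called by DESeq2. The log2 changes were then -2.10 ± 0.40 for S1pr1 (edgeR adjusted p = 0.12) and -2.88 ± 0.72 for P2ry10 (edgeR adjusted p = 0.23). Without that library they were -2.49 and -3.41 and both were called (edgeR adjusted p = 0.0018 and 0.0055), beside 0.932% of all genes, with 6 members at an unadjusted p under 0.05 and 3 called by DESeq2. The same library had 2.18 CPM of S1pr3, against 17.5 and 12.5 CPM in replicates 2 and 3. In these HSC, macrophage markers summed to 18.5 to 26.1 CPM in ko and 23.6 to 75.3 CPM in wt. The megakaryocyte list was at 226 to 298 and 216 to 710 CPM, and stroma at 16.0 to 31.5 and 24.3 to 84.9 CPM. All 3 lists overlapped. Mature lymphocyte markers, at 122 to 132 CPM in ko and 143 to 196 CPM in wt, did not. The part of the markers named here was not tested.

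Lpar1 was lower after IL-1 in HPC of both genotypes. Lpar1 had 1.74, 0.972 and 1.097 CPM in ko HPC after IL-1, against 8.99, 13 and 5.46 CPM in ko HPC after PBS, and 2.18, 1.61 and 2.40 CPM in wt HPC after IL-1, against 10.3, 9.68 and 11.8 CPM in wt HPC after PBS. All 6 libraries after IL-1 were below all 6 after PBS. It was the 1 member called in each genotype, beside 0.433% of all genes in ko HPC and 0.947% in wt HPC. The change was 7.16-fold in ko HPC (log2 change -2.84 ± 0.36, SE, edgeR adjusted p = 0.0029) and 5.10-fold in wt HPC (log2 change -2.35 ± 0.35, SE, edgeR adjusted p = 0.0034). Both calls were lost in 1 fit of all 27 libraries at nearly the same change (log2 change -2.85 and -2.35, edgeR adjusted p = 0.15 and 0.20). In HSC, Lpar1 stayed under 1.1 CPM in every library of the second experiment, and no change could be read from such levels.

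In the HPC libraries after IL-1, stem cell markers summed to 269 to 331 CPM in ko, against 504 to 595 CPM after PBS, and to 260 to 357 CPM in wt, against 522 to 836 CPM after PBS, with 1 of 8, Hlf, called lower in wt. Markers of multipotent and lymphoid primed progenitors ranged from 1748 to 5812 CPM in ko HPC after IL-1, against 2830 to 3490 CPM after PBS, and from 2548 to 5360 CPM in wt HPC after IL-1, against 2830 to 3510 CPM after PBS. Of the granulocyte monocyte progenitor list, Csf1r and Ms4a3 were called higher in wt HPC after IL-1. The part of these shifts in the Lpar1 values was not tested.

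The IL-1 comparisons of the members in HSC gave no call by edgeR. In ko HSC, beside 0.212% of all genes, 3 members had an unadjusted p under 0.05 and DESeq2 called 1, S1pr1, whose log2 change was 1.48 ± 0.39 (edgeR adjusted p = 0.18, DESeq2 adjusted p = 0.024) and whose libraries after IL-1 lay above all those after PBS. In wt HSC, beside 0.2% of all genes, 1 member had an unadjusted p under 0.05 and DESeq2 called 0. That member was S1pr3, with a log2 change of 1.33 ± 0.52 in wt HSC (edgeR adjusted p = 0.48) and 1.56 ± 0.50 in ko HSC (edgeR adjusted p = 0.32). Without HSC wt IL1 replicate 1 the S1pr3 change in wt HSC was 1.81 (edgeR adjusted p = 0.11), and edgeR again called 0 of 7 members, beside 0.223% of all genes, with 2 at an unadjusted p under 0.05 and 2 called by DESeq2. The IL-1 effect in ko minus that in wt was tested directly, and edgeR called 0 of 7 members in HSC and in HPC, beside 0% of all genes in each, with 1 and 0 members at an unadjusted p under 0.05 and 0 called by DESeq2 in either. Without HSC wt IL1 replicate 1, edgeR again called 0 of 7 in HSC, beside 0% of all genes, with 1 at an unadjusted p under 0.05 and 0 by DESeq2. For Lpar1 in HPC that difference was -0.49, with a 95% interval from -1.42 to 0.44.

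Among the other lysophospholipid receptors, P2ry10b was called lower in ko HSC and Gpr174 in ko HPC, each against wt. Against untreated het cells of the same population, edgeR called neither. P2ry10b had 1.34, 2.41, 2.46 and 2.13 CPM in untreated ko HSC, against 11.4, 8.28, 6.996 and 4.64 CPM in wt HSC (log2 change -1.92 ± 0.40, SE, edgeR adjusted p = 0.015). It was lower again in ko HSC after PBS, at 1.39, 0.668, 0.863 and 1.06 CPM, against 3.76, 4.86, 4.67 and 8.71 CPM in wt HSC after PBS (log2 change -2.48 ± 0.55, SE, edgeR adjusted p = 0.040). The libraries did not overlap in either experiment. In HPC after PBS, P2ry10b had 0.838, 0.510 and 1.64 CPM in ko, against 3.31, 4.91 and 3.42 CPM in wt, and missed the threshold (edgeR adjusted p = 0.11). Reads in the windows that P2ry10 shares with P2ry10b may have been counted for either gene, so their counts are uncertain to that extent.

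Gpr174, a lysophosphatidylserine receptor known from lymphocytes, was near 0 in HSC, with at most 6 reads in any HSC library. In HPC after PBS it had 0.140, 0.0300 and 0.235 CPM in ko, against 1.81, 2.61 and 4.49 CPM in wt (log2 change -4.37 ± 0.56, SE, edgeR adjusted p = 0.0064). In ko HPC it was higher after IL-1, at 1.80, 0.909 and 2.17 CPM, than after PBS (log2 change 3.52 ± 0.55, SE, edgeR adjusted p = 0.0081). It was the 1 of 48 pathway genes called there, beside 0.433% of all genes. In wt HPC Gpr174 had 9.27, 8.77 and 8.72 CPM after IL-1, but edgeR called 0 of 48 pathway genes in that comparison, beside 0.947% of all genes, and DESeq2 called 2. Its ko against wt change in HPC after IL-1 missed the threshold (log2 change -2.45 ± 0.46, SE, edgeR adjusted p = 0.054). Lpar4, 154.6 kb from P2ry10, had no call in ko against wt, with log2 changes of 0.02 ± 0.36 in untreated HSC and 0.21 ± 0.27 in HSC after PBS (SE). Itm2a and Cysltr1 in the same 500 kb window were not called either in HSC or HPC, untreated or after PBS, or in HPC after IL-1. They were not examined in the other cells. In untreated ko HPC, Itm2a lay close to the threshold (log2 change -0.72 ± 0.17, SE, edgeR adjusted p = 0.055). Its log2 change in HPC was -0.43 after PBS and -0.56 after IL-1.

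**Figure D5:**
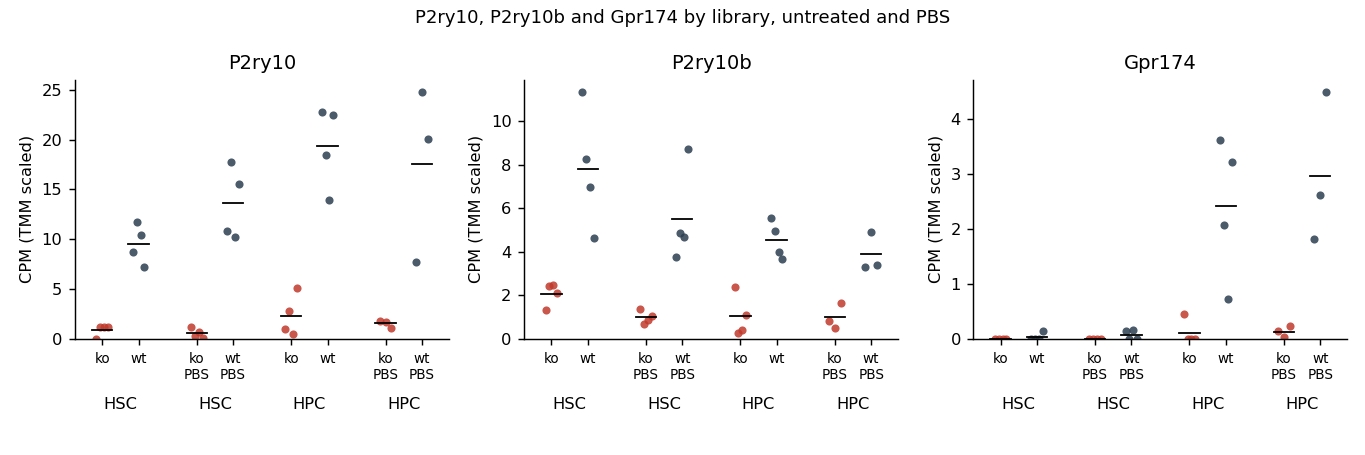
P2ry10, P2ry10b and Gpr174 in CPM after TMM scaling, 1 point per library, ko beside wt for untreated and PBS HSC and HPC; lines are means over 3 or 4 libraries. P2ry10b is at 2.08 CPM on average in untreated ko HSC and at 7.82 CPM in wt HSC, and Gpr174 is near 0 in HSC and lower in ko than in wt HPC.

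The pathway lists, also drawn up with earlier results known, held 53 genes, namely 11 other receptors, 20 genes of lipid synthesis, breakdown and transport, 15 of G protein signalling and 7 regulators of S1P receptors. In untreated ko against wt HSC, 2 of 47 tested were called lower and 0 higher, beside 1.21% of all genes called lower, P2ry10b and Cd69, whose product binds S1pr1 and takes it off the cell surface (log2 change of Cd69 -1.26 ± 0.25, SE, edgeR adjusted p = 0.013). In untreated ko HPC 3 of 47 were called lower, beside 1.1% of all genes called, Gpr174, Cd69 (log2 change -0.82) and Rgs1 (log2 change -0.98), the last a brake on G protein signalling. In untreated ko pGM 2 of 41 were called, beside 1.94% of all genes. Rgs1 was lower (log2 change -1.32) and Mfsd2b, an S1P exporter of red cells and platelets, was higher (log2 change 1.21 ± 0.27, SE, edgeR adjusted p = 0.033), in libraries where the erythroid list was also higher, as given above, and its part in the Mfsd2b value was not tested. In untreated GMP, edgeR called 0 of 37 pathway genes in ko against wt, beside 0.555% of all genes, with 3 at an unadjusted p under 0.05 and 1 called by DESeq2. DESeq2 called 2 in HSC, 4 in HPC and 4 in pGM in ko against wt. Against het, which also carried Vav-Cre, edgeR called 0 of 47 pathway genes in ko HSC, 0 of 47 in HPC and 0 of 41 in pGM. The shares of all genes called were 0.326%, 0.196% and 0.564%. At an unadjusted p under 0.05 were 5, 5 and 4 pathway genes, and DESeq2 called 1 in each. Mfsd2b was at 44.0 to 129 CPM in ko pGM and 39.0 to 60.7 CPM in het pGM, which overlapped.

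In the second experiment, 2 of 48 pathway genes were lower in ko HSC after PBS (P2ry10b, and Rgs1 with a log2 change of -1.07), beside 0.798% of all genes called. Gpr174 was the 1 of 48 called in ko HPC after PBS, beside 0.257% of all genes. After IL-1, edgeR called 0 of 48 in ko against wt HSC, beside 0% of all genes, and 0 of 48 in HPC, beside 0.201%, with 3 at an unadjusted p under 0.05 in each and 2 called by DESeq2 in HSC and 1 in HPC. Without HSC wt IL1 replicate 1, edgeR called 1 in HSC, beside 0.932% of all genes, with 3 at an unadjusted p under 0.05 and 2 called by DESeq2. DESeq2 called 3 after PBS in HSC and 3 in HPC. Of the 14 or 15 tested genes of the G protein list, 0 reached an unadjusted p under 0.05 by edgeR in ko against wt HSC, HPC or pGM. Klf2, which drives S1pr1 transcription in T cells, had a group mean of at most 1.003 CPM in every group.

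Mfsd2b was higher after IL-1 in HSC of both genotypes. It had 37.5, 55.2, 43.1 and 41.5 CPM in ko HSC after IL-1, against 11.02, 8.22, 13.5 and 5.86 CPM in ko HSC after PBS, and 48.4, 59.7 and 49.2 CPM in wt HSC after IL-1, against 19.0, 12.3, 16.4 and 5.13 CPM in wt HSC after PBS. The log2 changes were 2.20 ± 0.31 in ko and 2.03 ± 0.33 in wt (SE, edgeR adjusted p = 0.0034 and 0.0083). Mfsd2b was the 1 of 48 pathway genes tested that edgeR called there in each genotype, beside 0.212% of all genes in ko HSC and 0.2% in wt HSC. DESeq2 called 1 in ko and 2 in wt. Without HSC wt IL1 replicate 1 the wt change was 2.09 (edgeR adjusted p = 0.017). In HPC, where edgeR did not call Mfsd2b, ko libraries had 31.5, 25.8 and 16.9 CPM after IL-1, against 13.7, 13.7 and 14.7 CPM after PBS, without overlap. The wt HPC libraries had 8.93, 8.54 and 17.6 CPM after IL-1, against 4.33, 4.59 and 8.73 CPM after PBS, which overlapped. The erythroid list was at 52.8 to 71.7 CPM in ko HSC after IL-1, against 26.3 to 63.9 CPM after PBS. In wt HSC it was at 54.4 to 68.5 CPM after IL-1, against 26.4 to 69.4 CPM after PBS. These ranges overlapped, and the part of these markers in the Mfsd2b values was not tested. Along the wt populations, Mfsd2b averaged 11.4 CPM in HSC, 1.31 CPM in HPC, 39.3 CPM in pGM and 1.13 CPM in GMP, and Spns2, another S1P exporter, fell from pGM to GMP by 3.03 on the log2 scale (edgeR adjusted p = 5.9e-14).

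Over the means of the 12 untreated groups, genes whose log2 CPM followed each member closely were named by Pearson's r, which is a description over groups that share populations. S1pr1 was followed by Hemgn (r = 0.98), Inpp4b (r = 0.96) and Inpp5k (r = 0.95), and over the 8 groups of the second experiment the r was 0.94 and 0.97 for Hemgn and Inpp4b and 0.00 for Inpp5k. P2ry10 was followed by Prdm1 (r = 0.95) and C1qc (r = 0.95), with 0.85 and 0.42 in the second experiment. S1pr3 was followed by Mcm4, Suv39h1 and Mcm3 (r = 0.99 each, and 0.92, 0.86 and 0.85 in the second experiment), and S1pr4 by Eng and Fbxo10 (r = 0.99 each, and 0.93 and 0.85). Lpar1 was followed by Arl4c, Gpr171 and Slc16a11 (r = 0.99, 0.99 and 0.98, then 0.82, 0.56 and 0.69). The genes nearest to S1pr2 (Cdc42ep4, Stxbp6 and Gpld1, r = 0.90 to 0.93) and to Lpar6 (Mtfr1l, Cnpy4 and Pqlc2, r = 0.93 to 0.96) mostly did not follow them in the second experiment, where Cdc42ep4 had 0.87 and the others -0.56 to 0.50. Between the members themselves, S1pr1 and P2ry10 had an r of 0.84 over the untreated groups and 0.76 over the second experiment. Without HSC wt IL1 replicate 1 the values of the second experiment were 0.71, 0.64 and 0.58 for S1pr3 with Mcm4, Suv39h1 and Mcm3, 0.68, 0.43 and 0.62 for Lpar1 with Arl4c, Gpr171 and Slc16a11, and 0.81 for S1pr1 with P2ry10. They were 0.95, 0.98 and 0.12 for S1pr1 with Hemgn, Inpp4b and Inpp5k, 0.86 and 0.53 for P2ry10 with Prdm1 and C1qc, 0.93 and 0.85 for S1pr4 with Eng and Fbxo10, 0.78 for S1pr2 with Cdc42ep4, and -0.65 to 0.54 for the other genes named.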

How the data were processed

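Read counts per gene were used as the authors deposited them, in 2 tables of whole counts, 1 per experiment. Per the submitters' processing notes, reads were processed with STAR 3.0.4 and with featureCounts 1.4.5 of Subread. No source used here gives the genome build, the annotation or the strandedness. Symbols, coordinates and exon lengths came from GENCODE M21, which held 40340 of 41388 IDs. IDs outside it took 0.143% and 0.113% of reads, 3 entries of the untreated table that are not mouse genes were left out, and 0 columns stayed unassigned. The second experiment's HSC libraries carry HPCs as cell type, against HSC in every other label, and were grouped as HSC.

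Levels are CPM after TMM scaling over all libraries of an experiment. Tests were edgeR 4.0.16 (R 4.3.3) quasi-likelihood F tests, robust, after filterByExpr (minimum count 10, minimum total 15) and TMM, with Benjamini-Hochberg adjustment over all genes of a fit and calls at an adjusted p under 0.05. Each population had its own fit of all its groups. Populations and differences between populations came from 1 fit per experiment. Of 27 comparisons, the 6 genotype comparisons of untreated HPC and pGM carry no test for the members. The fit was tested on simulated data. Intervals are normal 95% intervals from the SE.

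The members, gene lists and tests were chosen with earlier results of these data known. Genes were named by a rule: the members, Kmt2c, pathway genes called (at most 8 per comparison), and the 3 protein-coding genes with the highest r for each member, of which some are not reported here. Spns2, P2ry10b, Gpr174 and Lpar4 are members of the lists, while Itm2a, Cysltr1, Klf2 and Rb1 were named for their position or role. Alternatives were DESeq2 1.42.0, RLE scaling, no filter, a block on the replicate number, 1 fit over each experiment, a Y-linked covariate (mean log2 CPM of Ddx3y, Eif2s3y, Kdm5d and Uty), each library left out, the longest transcript as length, and rank correlation. Same-numbered libraries deviated together (r over genes above 0.1 in each of 3 pairs, 0.16 to 0.37) in HPC after IL-1 only, so the numbers, which come from the titles, count as pairing there.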

Additional observations from a re-analysis of the deposited data

Results flagged for a closer look

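Among 105 sets of 4 libraries of a member in a group, 7 held a library far from the other 3. That share is near the about 1 in 20 that chance alone gives, so these libraries are listed and not read as results. Whether this rate holds for genes near 0, such as P2ry10 in GMP and Lpar1 in HSC, was not tested. P2ry10 had 0.0445 CPM in untreated HSC ko replicate 1, against 1.18 to 1.23 CPM in the other ko HSC libraries. P2ry10 had 3.83 CPM in pGM wt replicate 3, against 7.12 to 7.43 CPM in the others, and 1.44 CPM in GMP het replicate 1, against at most 0.205 CPM. S1pr4 had 85.3 CPM in pGM wt replicate 2, against 63.0 to 66.3 CPM, and 142.5 CPM in HSC ko PBS replicate 2, against 93.9 to 97.4 CPM. S1pr3 had 7.07 CPM in HSC wt PBS replicate 1, against 3.33 to 3.76 CPM. Lpar1 had 1.09 CPM in HSC ko IL1 replicate 1, against at most 0.234 CPM. The groups of 3 libraries, among them wt HSC after IL-1, could not be examined in this way.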

How the results depend on the processing

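Of the log2 changes of members that were called or named (29 in the tested comparisons, 375 values under the alternatives), none changed sign. The number of members called was within 1.5 times the count given in the report under every alternative but these. DESeq2 called 2 in ko against het HSC (edgeR 1), 1 in het against wt HSC (edgeR 0), 1 in ko against wt HSC after IL-1 (edgeR 0) and 1 in IL-1 against PBS in ko HSC (edgeR 0). Without HSC wt IL1 replicate 1, an alternative added after the data were seen, DESeq2 called 3 in ko against wt HSC after IL-1 and 2 in IL-1 against PBS in wt HSC (edgeR 2 and 0). In 1 fit of all libraries, 1 was called in ko against wt HSC after IL-1 (0 in the fit of HSC alone), 1 in ko against wt HPC after IL-1 (2 in the fit of HPC alone), and 0 in IL-1 against PBS in ko HPC and in wt HPC (1 in each). The Y-linked covariate left 1 in ko against wt HPC after IL-1. Leaving out 1 library gave 1 to 2 in ko against het HSC, 0 to 2 in ko against wt HSC after IL-1 (2 without HSC wt IL1 replicate 1) and 0 to 2 in ko against wt HPC after IL-1 (0 without HPC ko IL1 replicate 2). The causes were not tested.

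With the replicate number as a block, 1 member was called in ko against wt HSC after PBS (2 without the block) and 1 in ko against wt HSC after IL-1 (0 without it). In ko against wt HPC after IL-1, where the numbers count as pairing, the block kept the count at 2. It added S1pr1 in wt HPC against wt HSC after PBS and moved the count by no more than 1.5 times in the other comparisons.

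Counts of all genes called moved more. In ko against wt they were 246 (176 to 469 over the alternatives other than leaving out a library) in untreated HSC, 146 (39 to 302) in HPC, 251 (131 to 421) in pGM, 67 (12 to 225) in GMP, 132 (62 to 374) in HSC and 41 (20 to 233) in HPC after PBS, and 0 (0 to 190) in HSC and 32 (11 to 157) in HPC after IL-1. In ko against het they were 45 (22 to 136) in HSC, 26 (2 to 111) in HPC, 73 (14 to 190) in pGM and 2 (0 to 40) in GMP. In het against wt they were 1 (0 to 20), 1 (1 to 13), 2 (1 to 58) and 1 (0 to 5) in the same order. For IL-1 against PBS they were 35 (30 to 180) in ko HSC, 33 (31 to 178) in wt HSC, 69 (58 to 233) in ko HPC and 151 (134 to 468) in wt HPC. For the differences of effects they were 0, with at most 20 in HSC and 12 in HPC for IL-1 and 13 for PBS. Leaving out 1 library gave 151 to 233 in ko against wt untreated HSC, 80 to 99 in HPC, 160 to 232 in pGM, 16 to 66 in GMP, 42 to 91 in ko against wt HSC after PBS, 0 to 159 in ko against wt HSC after IL-1, 7 to 17 in ko against wt HPC after PBS and 2 to 58 in ko against wt HPC after IL-1. By rank correlation in place of Pearson's r, 2 of the 3 genes chosen for S1pr1 and for S1pr3 were again among the nearest 3, 1 of 3 for S1pr4, P2ry10 and Lpar6, and 0 of 3 for S1pr2 and Lpar1. Taking the longest transcript as length changed the order of the members per length in 1 of 20 groups, ko HSC. Genes at a few reads per library, such as P2ry10 in ko cells, Lpar1 in HSC and P2ry10, Lpar1 and S1pr1 in GMP, limit how large a change can be read.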
